A study of Capra hircus with 3 samples.

Results

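The cells described here are the E120 follicle cells of the goat that carried the keratins KRT5, KRT14 and KRT15, which are the textbook markers of basal keratinocytes and of the outer root sheath. A cell was a member if these 3 keratins summed to at least 50 UMIs per 10000 (CP10K), DCN was below 8 CP10K and 7 hair and inner root sheath keratins (KRT35, KRT85, KRT25, KRT27, KRT28, KRT71 and KRT73) summed to less than 100 CP10K. The rule was met by 247 of 6896 E120 cells, a share of 3.58% (exact binomial 95% interval 3.16 to 4.05). All intervals given here cover counting error only. The members were set against the other 6649 cells of the same library.

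The study took back skin from fetuses of the goat (Capra hircus) breed Northern Shaanxi White Cashmere on embryonic days E60, E90 and E120, and made 1 droplet-based single-cell RNA library for each day. Each library combined the cells of 2 or more fetuses, and the cells of the single fetuses cannot be told apart. Skin at E60 and E90 was digested whole with collagenase IV and broken up by pipetting, whereas at E120 follicles were picked with forceps after collagenase IV and then dissociated with TypLE Express (the labels' spelling). With 1 library per stage no difference could be tested, and no p-value is given.

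The outer root sheath is the outermost epithelial layer of the hair follicle and is continuous with the basal layer of the epidermis. Its cells rest on a basement membrane, express KRT5 and KRT14 together with KRT17, and depend on the transcription factor SOX9. The companion layer lies between this sheath and the inner root sheath and is known for KRT75, and the sheath of the upper follicle also holds stem cells of the bulge.

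Of the E120 cells, 252 reached the keratin threshold. DCN removed none of them and the hair keratins removed 5. The 3 cells just below the threshold had keratin sums of 49.38, 49.61 and 49.98 CP10K, and the 3 members just above it had 50.07, 51.77 and 52.34 CP10K, so the threshold cut through a continuous range. A further 158 cells had sums between 25 and 50 CP10K. The members' median sum was 88.4 CP10K and the highest was 856 CP10K. KRT14 alone brought 216 members to the threshold, KRT5 alone 2 and KRT15 alone 1. All 247 members had a KRT14 UMI, 204 (82.6%) had one of KRT5 and 141 (57.1%) one of KRT15. Membership was thus largely a matter of KRT14, and these values chose the cells and are given as a description.

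**Figure D1:**
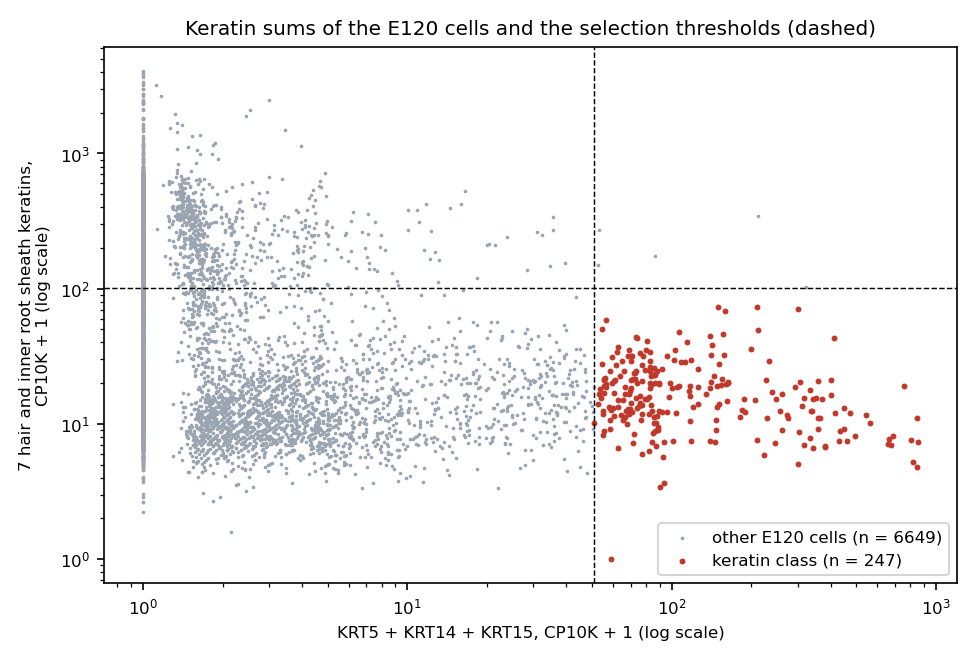
Each point is 1 E120 cell, with the sum of KRT5, KRT14 and KRT15 on the x axis and the sum of the 7 hair and inner root sheath keratins on the y axis, both in CP10K + 1 on log scales. Dashed lines mark the thresholds of 50 and 100 CP10K. The 247 members (red) form the sparse right end of the cells with low hair keratins, and 5 cells lie beyond both thresholds.

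Members were shallower than the rest of the library. Their median depth was 5452 UMIs and 1495 genes, against 13258 UMIs and 2317 genes in the other E120 cells, and their mitochondrial share (median 4.92%) was close to that of the others (5.27%). As a guide to free RNA, 284 other E120 cells with at least 10 CP10K of the endothelial genes PECAM1, CDH5, KDR and VWF were used, with a median of 6238 UMIs. KRT14 had a UMI in 13.4% of these endothelial-marker cells and KRT17 in 23.2%. UMIs of the hair keratins KRT85 and KRT71 were about as common in the members as there. KRT85, a shaft keratin, was found in 89.9% of members and 92.6% of endothelial-marker cells, and KRT71, an inner root sheath keratin, in 87% and 87.3%. The median sum of the 7 hair keratins was 14.5 CP10K in members and 13.7 CP10K in endothelial-marker cells. By these values the class as a whole was near the library's background, and these UMIs are not read as expression. KRT35 and the shaft keratin KRT84 were uneven within the class. They stood at 518 and 212 CPM over all members, and at 352 and 28.2 CPM without the SOX9-negative cells described below. Of the barcodes, 13 were shared between E90 and E120 and 10 between E60 and E120, and 2 members carried a barcode found at another stage.

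Markers that the rule had not used were examined first. KRT17, a keratin of the outer root sheath and companion layer, was found in 99.6% of members and 37.5% of other E120 cells. SOX9, the factor on which the outer root sheath depends, was found in 179 members (72.5%) and in 7.01% of the others. BARX2, a homeobox factor of the follicle epithelium, was found in 75.7% of members and 4.72% of the others. In the endothelial-marker cells SOX9 was found in 1.76% and BARX2 in 2.11%, so both were far above the background. Markers of a basal layer in contact with a basement membrane were sparser. COL17A1, the hemidesmosomal collagen, had a UMI in 24.3% of members, ITGA6, its integrin partner, in 26.7%, ITGB4 in 5.26% and TP63, the master factor of basal keratinocytes, in 14.2%. COL17A1 was in 1.06% and TP63 in 0.352% of endothelial-marker cells. The bulge markers NFATC1 and CD200 had UMIs in 2.43% of members each, and NFATC1 was in 1.76% of endothelial-marker cells, near the same share. A clustering of the members, described further on, set apart 42 cells with no SOX9 and no BARX2 UMI and with KRT5 at 29.5 CPM. Some members outside them also had no SOX9 UMI, and the term SOX9-negative cells is used here for the 42 only. For these 42 cells the label of outer root sheath or basal keratinocyte goes against the markers, so the whole group is called the keratin class here. They held 39.2% of all UMIs of the class and weigh heavily in every sum over it, so values without them are given beside the named genes whose call they decide.

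UMIs were summed over the class and over the other E120 cells and scaled to CPM (UMIs per 1000000), and a gene was called higher or lower when the ratio of CPM + 1 passed 2-fold. Genes of the rule and those under 10 CPM in both sums were left out. Of the 5571 remaining genes, 785 (14.1%) were higher in the keratin class and 713 (12.8%) were lower. The median log2 ratio of these genes was −0.12. Without the 42 cells set apart by the clustering, 990 genes were higher and 640 lower, and 569 of the 785 and 470 of the 713 genes were called again.

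The secreted phosphoprotein SPP1 (osteopontin) had the highest ratio, 2188 CPM in the keratin class (2126 to 2251) against 14.1 CPM (13.3 to 14.9) in the other cells, a 156-fold difference (146 to 166). It was found in 41.3% of members and 4.38% of the others. Its level was uneven, at 5953 CPM in the largest subcluster and between 1.18 and 1000 CPM in the other 4. SOX9 stood at 736 CPM (700 to 773) against 17.1 CPM (16.2 to 17.9), 43.1-fold higher. BARX2 stood at 467 CPM against 11 CPM, 42.4-fold higher (38.8 to 46.3). Both factors were thus found in most members and in a small share of the other cells of the library. Those other cells are many, so the positive cells were not mainly members. KRT17 stood at 11539 CPM against 329 CPM, 35.1-fold higher (34.5 to 35.7).

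The 12 highest ratios also held 2 kallikreins. KLK10, a kallikrein of the epidermal family of serine proteases, stood at 2130 CPM against 107 CPM, 19.9-fold higher (19.2 to 20.6). KLK6, of the same family, stood at 253 CPM against 7.26 CPM and was 34.9-fold higher (31.1 to 39.1). CSTA, the cysteine protease inhibitor cystatin A, stood at 355 CPM against 15.1 CPM and was 23.6-fold higher (21.5 to 25.8). The matrix proteins MGP and POSTN were 26.2-fold and 23.6-fold higher, and PDZRN3, a ubiquitin ligase, was 21.8-fold higher. Each of these genes except CSTA stood higher still without the 42 SOX9-negative cells. The remaining members were not alike in them either. KLK10 stood at 5713 CPM in the largest subcluster and at 13 to 574 CPM in the other 4. MGP stood at 496 CPM in it and at most at 36.8 CPM in the others. POSTN stood at 3203 CPM in the second subcluster and at most at 760 CPM in the others.

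CNFN, a component of the cornified envelope, and VSIG8, an immunoglobulin-domain protein of the hair cortex and cuticle, went the other way. CNFN stood at 1087 CPM in the class against 22.6 CPM in the other cells, a log2 ratio of 5.53. VSIG8 stood at 1593 CPM against 90.7 CPM, a log2 ratio of 4.12. Without the 42 cells the log2 ratios were −1.45 and −2.25, so the high sums of both genes rested on those cells. The log2 ratio of CSTA was 4.47 with them and 3.17 without.

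The genes with the lowest ratios included some of the hair matrix, the shaft and vessels. SELENBP1, a selenium-binding protein, stood at 14.4 CPM against 250 CPM, and DAPL1, a relative of death-associated proteins, at 76.9 CPM against 1115 CPM, 14.5-fold lower (12.5 to 17). LEF1, the WNT effector of the hair matrix, stood at 17.6 CPM against 190 CPM and was 10.8-fold lower (7.88 to 15.3). For DAPL1 the class (40.1% of cells) was at the level of the endothelial-marker cells (39.8%). GPRC5D, an orphan receptor of the hair cortex, was at 38 CPM in the class and 46.2 CPM in the endothelial-marker cells. BMP7 (15.8 against 135 CPM), KITLG, the ligand of the KIT receptor (35.7 against 314 CPM), and UHRF1, a DNA methylation and replication factor (9.73 against 102 CPM), were also among the 12 lowest. PLVAP, an endothelial gene, stood at 6.49 CPM against 116 CPM. HS3ST2, CLEC3B, EFHD1 and LY6G6D completed the 12, with log2 ratios from −3.95 to −2.95.

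The genes of the class were next grouped by role. In each list a gene counted as tested if it had at least 10 CPM in the class or in the other E120 cells, and the counts are to be read against the 14.1% and 12.8% of all genes.

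**Figure D2:**
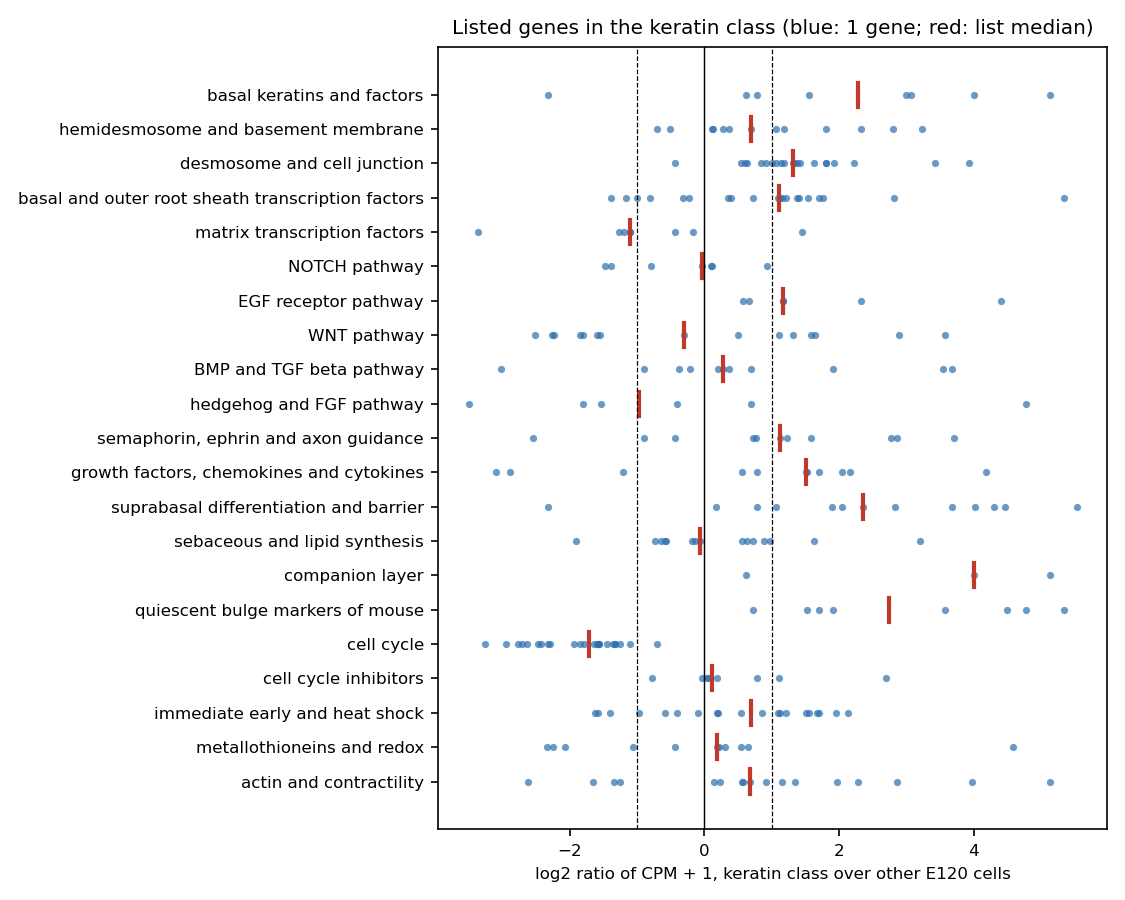
Each blue point is 1 listed gene that reached 10 CPM in the class or in the other E120 cells, placed by the log2 ratio of CPM + 1 of the keratin class over the other E120 cells. Red bars are list medians, the solid line is no difference and dashed lines are 2-fold. KRT17 stands in 3 of the lists. The cell cycle list lies wholly to the left of 0, and the junction list lies to its right with 1 exception.

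Keratins outside the rule came first. Of 14 listed keratins and related genes 8 were tested, 5 were higher and 1 was lower, with a median log2 ratio of 2.28. KRT19, a keratin of bulge and simple epithelium, stood at 1352 CPM against 161 CPM, and at 497 CPM without the 42 SOX9-negative cells. KRT75, the companion layer keratin, stood at 195 CPM against 11.3 CPM, and KRT8, a keratin of simple epithelium, at 118 CPM against 13.9 CPM. KRT1, the keratin of suprabasal epidermis, was the lower one, at 8.34 CPM against 45.6 CPM. Without those cells the list median was 1.62. KRT75 rested on them, since it was at 10.7 CPM without them, a log2 ratio of −0.07. In the companion layer list KRT75 and KRT17 were the 2 of 3 tested genes that were higher.

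Cell junctions were the list with the most genes called higher. Of 21 tested genes of desmosomes, adherens, tight and gap junctions 15 were higher and none was lower, with a median log2 ratio of 1.31. DSP, the plaque protein desmoplakin, stood at 1140 CPM against 452 CPM, and CLDN1, a tight junction claudin, at 999 CPM against 284 CPM. The desmosomal cadherin DSC2 (63 against 3.19 CPM) and the gap junction connexin GJB2 (88 against 7.34 CPM) had the highest ratios of the list. CTNNB1, which also acts in WNT signalling, had the lowest ratio of the list, 42.6 CPM against 58.3 CPM. Without the 42 SOX9-negative cells 14 of 20 tested genes were higher and 1 was lower, the desmosomal cadherin DSC1, at 13 CPM against 56.3 CPM.

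Contacts to the basement membrane were higher in part. Of 13 tested genes 6 were higher and none was lower, with a median of 0.69. DST, which holds the epithelial form of the hemidesmosome plaque protein BPAG1, stood at 291 CPM against 29.8 CPM. LAMB3, a chain of laminin-332, stood at 14.8 CPM against 1.27 CPM, and ITGA6 at 45.9 CPM against 12.4 CPM. The basement membrane nidogens NID1 and NID2 had no UMI in the class, which allows up to 1.39 CPM. ITGA6 and DST are also expressed by endothelial cells, and the endothelial-marker cells stood at 124 CPM and 91.9 CPM.

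Among 20 tested transcription factors of basal and outer root sheath cells 11 were higher and 2 lower, with a median of 1.11. Beside SOX9 the Iroquois factor IRX4 was at 39.4 CPM against 4.71 CPM. LHX2, a factor of follicle progenitors, did not pass 2-fold, at 207 CPM against 125 CPM, but did without the 42 SOX9-negative cells, at 282 CPM. The 2 lower genes were ID3, an inhibitor of helix-loop-helix factors, at 752 CPM against 1699 CPM, and GATA3, a factor of the inner root sheath, at 68.1 CPM against 178 CPM, and GATA3 was within 2-fold without those cells, at 109 CPM. Factors of the hair matrix leaned the other way, with 1 of 8 tested higher and 5 lower and a median of −1.11. VDR, the vitamin D receptor, was the higher one at 50.5 CPM against 17.9 CPM, and MSX1 was at 111 CPM against 255 CPM. HOXC13, a factor of shaft differentiation, was at 316 CPM against 356 CPM. It was found in 97.6% of the 42 SOX9-negative cells and in 83.5% of the largest subcluster.

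In the EGF receptor pathway 4 of 6 tested genes were higher and none lower, with a median of 1.17. BTC, the ligand betacellulin, stood at 42.2 CPM against 1.04 CPM, and AREG, the ligand amphiregulin, at 144 CPM against 28 CPM. EGFR itself was at 38.9 CPM against 25.9 CPM and did not pass 2-fold, but it did without the 42 SOX9-negative cells, at 58.7 CPM. In the BMP and TGF beta pathway 3 of 11 tested genes were higher and 1 lower, with a median of 0.27. The ligand TGFB2 stood at 97.3 CPM against 7.43 CPM, INHBB, an activin subunit, at 33.4 CPM against 1.69 CPM, and the activin antagonist FST at 65.3 CPM against 16.7 CPM. BMP7, given above, was the lower one, and the ligand BMP4 was at 38 CPM against 71.9 CPM. Without the 42 cells 6 of 12 tested genes were higher and 5 lower, with BMP4 among the lower ones at 6.10 CPM.

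In the WNT pathway 6 of 15 tested genes were higher and 7 lower. The receptor LGR5, a stem cell marker of the follicle, was at 67.6 CPM against 4.75 CPM, and the secreted antagonist SFRP1 at 182 CPM against 23.7 CPM. The frizzled receptors FZD6 and FZD7 were at 93.6 against 30.5 CPM and at 49.1 against 19 CPM. The negative feedback target AXIN2 was at 4.17 CPM against 28.4 CPM and the antagonist WIF1 at 11.6 CPM against 58 CPM. The receptors were not of 1 direction, since FZD10 (log2 ratio −1.80) was lower. The list median was −0.30 over the whole class. Without the 42 SOX9-negative cells 17 genes were tested, 9 higher and 8 lower, with a median of 1.13. DKK1 and WNT7B, both higher at 11.4 CPM, were tested only then, so the medians cover different genes. Of the genes tested both times, LRP6 (log2 ratio 1.13) became higher and WNT10A (−1.14) lower. No change of sign is read from the medians.

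In the hedgehog and FGF list 1 of 6 tested genes was higher and 3 were lower, with a median of −0.97. The growth factor FGF18 was at 60.7 CPM against 1.25 CPM, and the hedgehog receptor PTCH1 at 19 CPM against 57.1 CPM. SHH, the ligand made in the hair matrix, was at 1.85 CPM against 31.3 CPM. Of 7 tested NOTCH pathway genes none was higher and 2 were lower, with a median of −0.03. The ligand JAG1 was at 123 CPM against 321 CPM, and at 181 CPM, within 2-fold, without the 42 SOX9-negative cells. HES1, a NOTCH target, was at 153 CPM against 266 CPM.

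Guidance molecules and secreted factors were more often higher than lower. Of 11 tested semaphorin, ephrin and guidance genes 6 were higher and 1 lower, with a median of 1.13. SEMA3E stood at 70.9 CPM against 8.87 CPM, SEMA3C at 25.9 CPM against 1.06 CPM and EFNB2, a transmembrane ephrin, at 257 CPM against 109 CPM. Of 11 tested growth factors and chemokines 6 were higher and 3 lower, with a median of 1.51. EDN2, an endothelin, stood at 79.7 CPM against 3.45 CPM, VEGFA, the vascular growth factor, at 202 CPM against 47.9 CPM and CXCL14, a chemokine of skin epithelium, at 2326 CPM against 710 CPM. They were unevenly spread within the class, and EDN2 was at 723 CPM in 1 subcluster and at most 20.4 CPM in the others.

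Of 13 tested genes of suprabasal differentiation and the barrier 10 were higher and 1, KRT1, was lower, with a median of 2.35. Besides CNFN, CSTA and KLK10 they included KLK7 (375 against 28.4 CPM), a protease of corneocyte shedding, and its inhibitor SPINK5 (354 against 94.9 CPM). SBSN, the protein suprabasin, was at 887 CPM against 424 CPM. KRT10, the partner of KRT1, was at 34.3 CPM against 19.5 CPM and in 4.45% of the cells of either group. Beside proteases, inhibitors and envelope proteins, the higher genes included S100A8 (327 against 63.4 CPM), S100A12 (139 against 18.6 CPM) and CALML5 (97.7 against 22.9 CPM). The 2 suprabasal keratins were in few members. S100A8 was within 2-fold without the 42 SOX9-negative cells, at 96 CPM, and CALML5 was then lower, at 9.91 CPM. Without the 42 cells 9 of 14 tested genes were higher and 3 lower, with a median of 1.73, and KRT10 passed 2-fold at 53.3 CPM. LOR, IVL and FLG were not analysed here.

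Genes that mark the mouse bulge in its resting state were tested in 8 of 20 cases, and 7 were higher and none lower, with a median of 2.74. They were SOX9, FGF18, POSTN, LGR5, FST, TCF7L1 and PTHLH, and LHX2 did not pass 2-fold over the whole class. The list summed to 1655 CPM in the class and 209 CPM in the other E120 cells. It was not particular to the class across stages. E90 cells of the same rule had 1777 CPM, other E90 cells 1369 CPM and all E60 cells 6644 CPM. Within the class it ranged from 95.7 CPM in the 42 SOX9-negative cells to 6103 CPM in the second subcluster. Of the sebaceous and lipid genes 2 of 15 tested were higher and 1 lower, with a median of −0.06. The 2 were ACSL1, an acyl-CoA synthetase (45.9 against 4.06 CPM), and MGST1, a microsomal glutathione transferase (1302 against 421 CPM). Without the 42 cells 3 of 15 were higher and 7 lower. PPARG, the defining factor of sebocytes, had 1 cell with a UMI among the members, and SCD, a lipid desaturase, was at 2.32 CPM against 11.5 CPM.

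The cytoskeletal and stress lists were mixed. Of 17 tested genes of actin and contractility 7 were higher and 4 lower, with a median of 0.68. TPM1, a tropomyosin, was at 167 CPM against 9.67 CPM and CALD1, the actin-binding caldesmon, at 1223 CPM against 312 CPM. VIM, the mesenchymal intermediate filament, was at 114 CPM against 707 CPM. Of 20 tested immediate early and heat shock genes 9 were higher and 3 lower, with a median of 0.70. FOS was at 6553 CPM against 2217 CPM, ATF3 at 388 CPM against 99.9 CPM and the small heat shock protein HSPB1 at 3892 CPM against 1217 CPM. Immediate early genes also move with dissociation, and the part of dissociation in these values was not tested. Of 11 tested redox genes 1, the glutathione peroxidase GPX2 (29.2 against 0.263 CPM), was higher and 4 were lower. The median of that list was 0.19, and −0.73 without the 42 SOX9-negative cells, although 3 of its 11 tested genes were then higher and 3 lower. Without those cells 8 of 18 tested actin genes were higher and 2 lower. In the immediate early and heat shock list 12 of 21 were then higher and 2 lower.

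Of 12 listed endothelial genes 8, CDH5 and VWF among them, had no UMI in it, and the list summed to 11.6 CPM against 7320 CPM in the endothelial-marker cells. Among the 10 immune genes measured, 9 had none, and the list summed to 1.39 CPM. The fibroblast genes LUM, OGN and PDGFRA had none either. That list summed to 1043 CPM in the class and 298 CPM in the other E120 cells, and POSTN (451 CPM) and SPARC (570 CPM), a matrix-binding glycoprotein, held nearly all of it. COL1A1 was at 13.9 CPM. At least 2 UMIs of 5 fibroblast markers were in 12 members, 11 of which belonged to the second subcluster below. At least 2 UMIs of 4 mural markers were in 77 members. Of these markers ACTA2, smooth muscle actin, stood at 102 CPM against 39.4 CPM, whereas PDGFRB, which defines mural cells, had no UMI in the class. Without the 42 SOX9-negative cells ACTA2 was at 67.1 CPM, within 2-fold. The mural list summed to 168 CPM against 109 CPM in the other E120 cells, and its part in the results was not tested. The melanocyte list summed to 8.80 CPM against 20 CPM, and the list of Schwann and Merkel cells to 2.32 CPM against 3.40 CPM. Haemoglobin genes, a sign of blood RNA, summed to 44.5 CPM against 261 CPM.

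Transcripts of the cell cycle were the list with the most genes called lower. Of 24 tested genes none was higher and 23 were lower, with a median of −1.72. TOP2A, the topoisomerase of dividing cells, was at 40.8 CPM against 208 CPM and CENPF, a kinetochore protein, at 38.9 CPM against 271 CPM. Of 8 tested cell cycle inhibitors 2 were higher and none lower, with a median of 0.12. They were CDKN1A (p21), at 863 CPM against 132 CPM, and BTG2, at 174 CPM against 80.3 CPM. Without the 42 SOX9-negative cells CDKN1A was at 182 CPM, a log2 ratio of 0.46, and was no longer past 2-fold. In the cell cycle list 17 of 24 tested genes were lower without these cells. The list summed to 429 CPM in the class. Other E120 cells with at least 100 CP10K of shaft keratins had 468 CPM. Those with as much of the inner root sheath keratins had 646 CPM. Endothelial-marker cells had 815 CPM and other E120 cells with low hair keratins 2750 CPM, so the difference was largest against the latter. With each cell thinned to 2000 UMIs, 52 of 247 members (21.1%, 16.1 to 26.7) had at least 2 UMIs over 32 cell cycle genes, against 42% (40.8 to 43.2) of other E120 cells. No cell was too shallow to be thinned. Unthinned shares were 56.7% and 74.1%. The order of the 2 groups was the same at equal depth, and within the class the thinned share ranged from 2.38% to 42.3% between subclusters (unthinned 44.3% to 69.2%).

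Clustering of the 247 members alone gave 5 subclusters, which are called by their first leading gene and were given no cell type. The genes that set them apart were used to make them and are a description. Subcluster 1 (MGP) held 79 cells with a median of 9533 UMIs, subcluster 2 (FGF18) 52 cells with 3903 UMIs and subcluster 3 (KCNIP3) the 42 SOX9-negative cells with 21303 UMIs. Subcluster 4 (CCN2) and subcluster 5 (AREG) held 37 cells each, with 3634 and 4496 UMIs. Depth thus differed along with the subclusters, and its part in them was not tested.

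**Figure D3:**
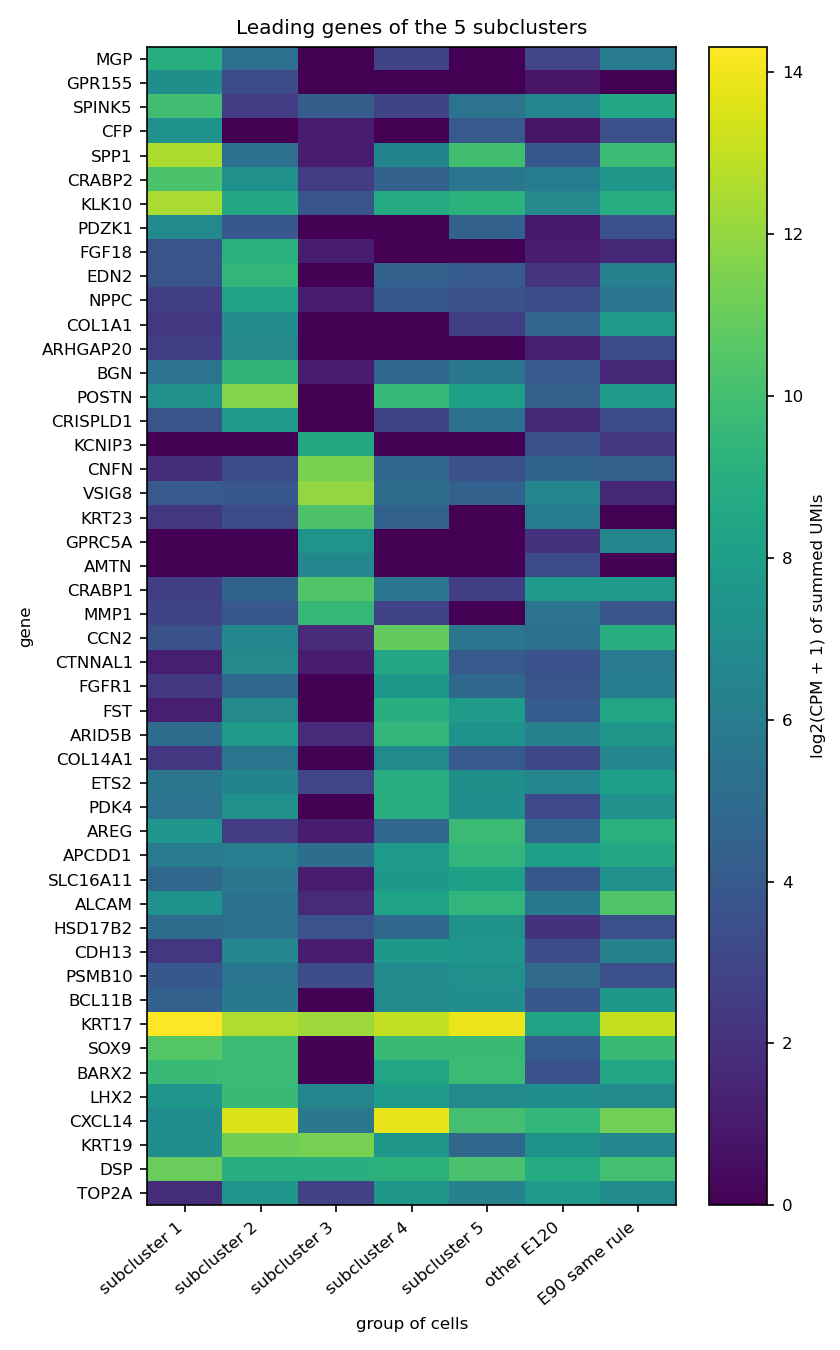
Colour gives log2(CPM + 1) of summed UMIs for 8 leading genes of each subcluster and 8 further genes (rows, KRT17 to TOP2A at the bottom) in the 5 subclusters, the other E120 cells and the E90 cells chosen by the same rule (columns). SOX9 and BARX2 are at 0 in subcluster 3 alone, and of the 5 subclusters KRT17 is lowest there, at 4762 CPM.

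The MGP subcluster held 32% of the members and 35.1% of their UMIs, and had the highest keratin sums, with a median of 304 CP10K. KRT14 stood at 35762 CPM, KRT5 at 2019 CPM and KRT17 at 20294 CPM, whereas KRT15 was at 14.5 CPM. SOX9 was found in 76 of its 79 cells. The hemidesmosomal collagen COL17A1 had no UMI in any of them, against 69.2 CPM in the other members, at least 17.5-fold lower by a floor of 3 counts over the subcluster. SPP1 stood at 5953 CPM in it and KLK10 at 5713 CPM. SPINK5 was at 975 CPM, and CRABP2, a carrier of retinoic acid, at 1217 CPM.

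The other leading genes of the MGP subcluster were GPR155, CFP, PDZK1, PDZRN3 and BTC. The desmosomal genes DSP (2102 CPM) and DSG1 (1165 CPM) and the tight junction gene CLDN1 (2081 CPM) stood higher in it than in any other subcluster. So did TGFB2, at 238 CPM, and the gap junction genes GJA1, at 732 CPM, and GJB2, at 193 CPM. The junction list summed to 7257 CPM in it, against 1898 to 3959 CPM in the other 4, and the barrier list to 9913 CPM, against 658 to 4751 CPM. After thinning, 8.86% of its cells (3.64 to 17.4) had cell cycle transcripts.

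The FGF18 subcluster held 21.1% of the members and 10.1% of their UMIs. FGF18 stood at 557 CPM, EDN2 at 723 CPM and NPPC, the C-type natriuretic peptide, at 322 CPM. The matrix genes BGN (654 CPM) and POSTN (3203 CPM) were also among its leading genes, as were COL1A1, ARHGAP20, CRISPLD1, EMP3 and ISM1. LHX2 was found in 51 of its 52 cells, at 801 CPM. LGR5 stood at 405 CPM, SFRP1 at 1026 CPM, KRT15 at 1077 CPM, KRT19 at 2407 CPM and KRT8 at 769 CPM. LHX2 and LGR5, markers of follicle progenitors, stood higher in it than in the other 4 subclusters. Of other mouse bulge markers, SOX9 was at 856 CPM in it and highest in the MGP subcluster, and FST was at 106 CPM and highest in the CCN2 subcluster.

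Basement membrane contacts were also high in the FGF18 subcluster. DST stood at 1105 CPM, ITGA6 at 221 CPM and COL17A1 at 198 CPM. Fibroblast genes moved with it, since COL1A1 was at 120 CPM in it and between 0 and 5.26 CPM in the other 4, and 11 of its cells had at least 2 UMIs of fibroblast markers. LUM and OGN had no UMI in it, and the part of RNA from other cells was not tested. After thinning 42.3% of its cells (28.7 to 56.8) had cell cycle transcripts, and the share in the other E120 cells lay within that interval.

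The KCNIP3 subcluster held 17% of the members and 39.2% of their UMIs. KCNIP3, a calcium-binding protein of potassium channels, was at 407 CPM in it and had no UMI in the other 205 members, at least 178-fold higher. CNFN (2761 CPM) and VSIG8 (4034 CPM) followed, with KRT23, an acidic keratin (1282 CPM), SERPINB13, an inhibitor of cysteine proteases (1195 CPM), and the secreted pentraxin NPTX2 (1332 CPM). CRABP1, a carrier of retinoic acid, stood at 1358 CPM and the collagenase MMP1 at 739 CPM. GPRC5A and AMTN were the other leading genes. KRT75 was found in 41 of the 42 cells, at 481 CPM, and KRT19 stood at 2679 CPM.

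SOX9 and BARX2 had no UMI in the 42 cells of this subcluster, at least 341-fold and 216-fold lower than in the other members. DST was at 1.18 CPM, CLDN1 at 8.27 CPM and KRT5 at 29.5 CPM, whereas KRT14 stood at 9814 CPM and KRT15 at 365 CPM. The BMP pseudoreceptor BAMBI (1787 CPM), p21 (CDKN1A, 1918 CPM) and the calprotectin subunit S100A8 (685 CPM) were found in every one of its cells. FABP3.1, a fatty acid binding protein, stood at 31499 CPM in it and at 168 to 2188 CPM in the others. The unnamed gene ENSCHIG00000005102 stood at 74372 CPM and at most 387 CPM in the others. KRT84, a keratin of the hair shaft cuticle, was at 496 CPM in it and 14.1 CPM in endothelial-marker cells. These cells thus had KRT14 and KRT17 without SOX9 and BARX2, and 2.38% of them (0.0603 to 12.6) had cell cycle transcripts after thinning.

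The CCN2 subcluster held 15% of the members. CCN2, a target of YAP and TGF beta signalling, stood at 1866 CPM, and FST at 495 CPM and the chromatin factor ARID5B at 719 CPM also led it. CTNNAL1, FGFR1, COL14A1, ETS2, PDK4 and TNS4 were also among its leading genes. CXCL14 was at 14703 CPM and COL17A1, at 210 CPM, was found in 21 of its 37 cells. FOS was at 32785 CPM and ATF3 at 1907 CPM, the highest levels of the 5 subclusters. Its immediate early and heat shock list summed to 55962 CPM, against 10974 to 23574 CPM in the others. The share with cell cycle transcripts was 35.1% (20.2 to 52.5).

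The AREG subcluster also held 15% of the members. AREG stood at 874 CPM in 12 of its 37 cells, and APCDD1, a WNT inhibitor, at 695 CPM. ALCAM, an adhesion molecule, was at 690 CPM, and SLC16A11, HSD17B2, CDH13, PSMB10, BCL11B, FST and GYPC also led it. KRT17 was at 15372 CPM, KLK7 at 695 CPM and SBSN at 2553 CPM, the highest SBSN level of the 5. KRT10 was at 347 CPM in 3 of its cells. At resolution 1, 62.2% of its cells stayed in 1 cluster, the lowest share of the 5, whereas with 1000 variable genes all of them did. The KCNIP3 cells stayed in 1 cluster under both settings. When cells under 1000 genes or over 10% mitochondrial counts were left out, there were 4 clusters.

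Counts of cells with both of a pair of genes describe the same division cell by cell and are no independent support for the subclusters. SOX9 and KCNIP3 were never found in the same member, with 179 members positive for SOX9 only and 39 for KCNIP3 only. SOX9 and CNFN were found together in 9 members, with 170 and 42 positive for 1 of them. SOX9 and BARX2 were found together in 163 members and alone in 16 and 24. CXCL14 and POSTN were found together in 81 members, and POSTN without CXCL14 in 9. SPP1 and COL17A1 were found together in 10 members, and alone in 92 and 50. These genes were picked after their values had been seen, and depth differs between the cells that carry them.

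The genes of the class were not limited to it. KRT17 reached 50 CP10K in 162 members and 135 other E120 cells, and SOX9 reached 5 CP10K in 138 members and 145 others. CNFN reached 5 CP10K in 41 members and 84 others, and SPP1 in 81 and 43. The cells with keratin sums of 25 to 50 CP10K, outside the rule, had SOX9 in 54.4% and BARX2 in 48.1% of cells, CNFN in 34.8% and SPP1 in 13.3%. CNFN was thus in a larger share, and SPP1 in a smaller share, of these cells than of the members (20.6% and 41.3%).

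Within E120 the 2 keratinising groups stood apart from the class in KRT17 and SOX9. Other E120 cells with shaft keratins of at least 100 CP10K (1976 cells) had KRT17 at 38.1 CPM and SOX9 at 2.55 CPM. Those with inner root sheath keratins of at least 100 CP10K (578 cells) had KRT17 at 173 CPM and SOX9 at 15.8 CPM. The remaining 3811 cells with low hair keratins had KRT17 at 604 CPM, SOX9 at 29.2 CPM and CXCL14 at 1399 CPM. KLK10 was highest outside the class in the inner root sheath group, at 363 CPM. VSIG8 was highest outside the class in the shaft group, at 184 CPM. In junction and barrier genes the inner root sheath group was nearer to the class. The junction list summed to 3063 CPM in it, 1606 CPM in the shaft group and 4050 CPM in the class. The barrier list summed to 4224 CPM, 155 CPM and 5884 CPM in the same order.

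**Figure D4:**
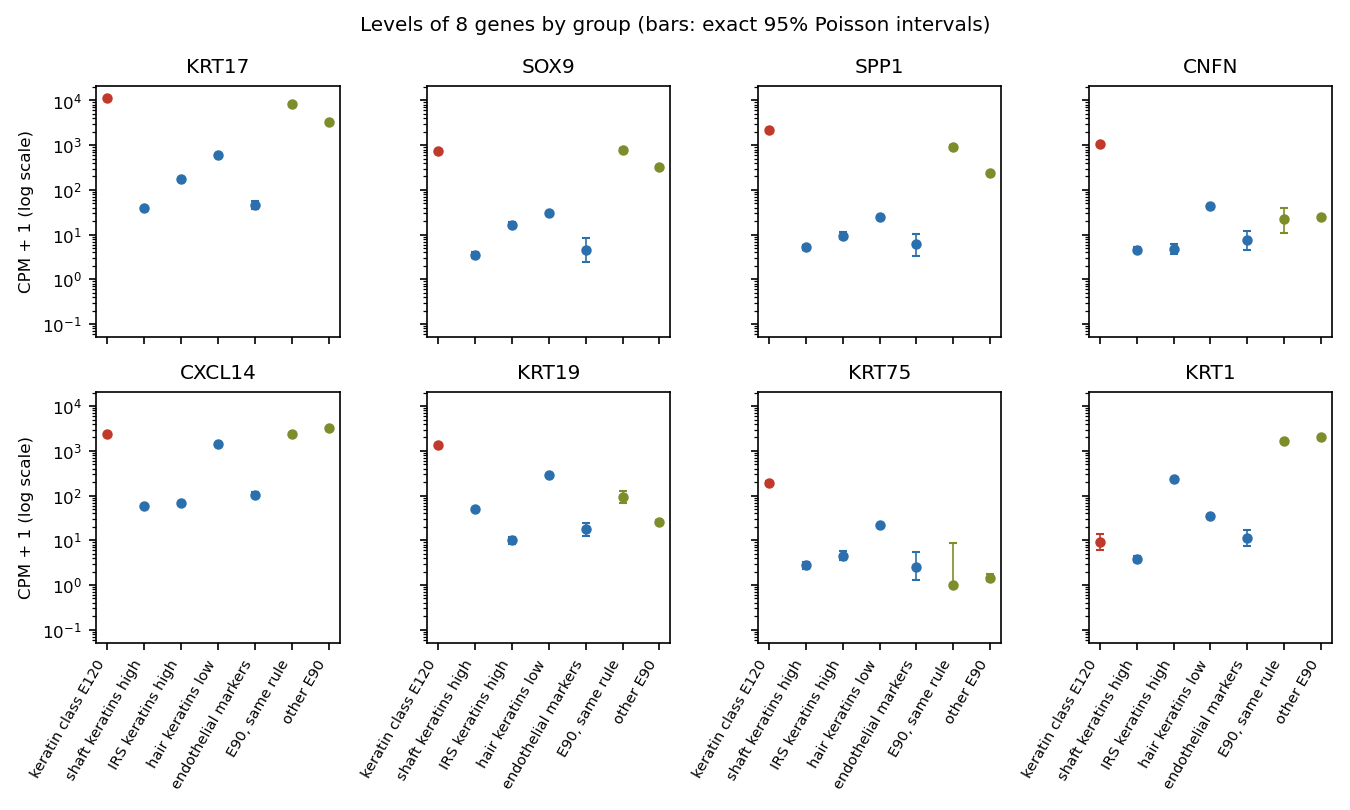
Each panel gives 1 gene, with CPM + 1 of summed UMIs on a log scale and exact 95% Poisson intervals (counting error only) for the keratin class (red), 4 groups of other E120 cells (blue) and the E90 cells inside and outside the rule (green). SOX9 and SPP1 were high in the E120 class and in both E90 groups, CNFN, KRT19 and KRT75 in the E120 class, and KRT1 in both E90 groups.

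The same rule was then applied at the other stages. It found 89 of 6931 E90 cells (1.28%, 1.03 to 1.58) and none of 6849 E60 cells (0%, 0 to 0.0538). At E90, 112 cells reached the keratin threshold and DCN removed 23 of them. A UMI of the 3 keratins was in 93.6% of all E90 cells, 47.6% of E120 cells and 0.131% of E60 cells. Their median sum over all E90 cells was 9.75 CP10K, so the threshold lay closer to the bulk of cells at E90 than at E120. The E90 cells had a median of 4331 UMIs and a keratin sum of 63.8 CP10K. Stage and dissociation cannot be told apart between the 2 libraries.

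Among 6621 genes, 672 (10.1%) were higher in the E120 class than in the E90 cells and 2023 (30.6%) were lower, with a median log2 ratio of −0.51. The E90 sum held 478944 UMIs, so that 1 UMI was worth 2.09 CPM. Without the 42 SOX9-negative cells the counts were 640 and 1504.

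Of the 12 genes with the highest ratios at E120, all but FABP9 and KLK7 stood highest in the KCNIP3 subcluster. FABP3.1 stood at 13205 CPM against 1 UMI at E90, a ratio of 6324 (1135 to 249806). VSIG8 was also at 1 UMI at E90, a ratio of 763 (137 to 30138). NPTX2, KRT23, SERPINB13, MREG, KRT84, KRT75 and FABP9 had no UMI in the E90 cells of the rule, and their folds are bounds at 3 counts over those cells. NPTX2 was at least 84.9-fold higher at E120, KRT23 at least 80.8-fold and SERPINB13 at least 76.4-fold. MREG, a vesicle transport protein, was at least 49-fold higher and KRT75 at least 31.1-fold. FABP9 (at least 20.5-fold) was in 49% of members but also in 45.1% of endothelial-marker cells, so its E120 value is at the background of that library.

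KLK7, which stood highest in the MGP and AREG subclusters, was at 375 CPM against 6.26 CPM (3 UMIs), a ratio of 59.9 (20.4 to 291). BAMBI stood at 742 CPM against 12.5 CPM, and SYTL2, a regulator of exocytosis, at 306 CPM against 4.18 CPM (2 UMIs), a ratio of 73.3 (20.2 to 607). Without the 42 cells the log2 ratio of FABP3.1 against E90 was 8.83 in place of 12.06. That of VSIG8 was 2.64 in place of 9.01. The log2 ratio of BAMBI was 2.36 in place of 5.78 and that of SYTL2 1.43 in place of 5.89.

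Among the genes lowest at E120 against E90, KRT4, a keratin of stratified mucosa, had no UMI in the class and stood at 658 CPM at E90, at least 473-fold lower at E120. KRT1 was at 8.34 CPM against 1639 CPM, 197-fold lower (124 to 333). The dermal genes OGN, LUM and DLK1 had no UMI in the class, and the protease MMP7 had none either. Most of these genes were as common outside the rule at E90. KRT1 was found in 97.8% of the rule's cells and 97.4% of the other E90 cells, KRT4 in 69.7% and 76.6% and OGN in 68.5% and 85.8%. MMP7, at 31.5% and 3.05%, and DLK1, at 23.6% and 13.2%, were more common in the cells of the rule. The part of free RNA of the E90 library in these differences was not tested.

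KRTDAP, a secreted protein of differentiating keratinocytes, was at 3.24 CPM against 267 CPM, 82.4-fold lower at E120 (38.9 to 209). LRRC17, WFDC2, LYPD2, MEF2C and COL1A2 made up the rest of the 12 lowest genes.

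Several genes that set the class apart within E120 differed by less than 2-fold from the E90 cells of the rule. SOX9 was at 736 CPM at E120 and 791 CPM at E90, KRT17 at 11539 CPM and 8379 CPM, CXCL14 at 2326 CPM and 2422 CPM, LGR5 at 67.6 CPM and 56.4 CPM and EDN2 at 79.7 CPM and 73.1 CPM. At E90, however, SOX9 was also in 61.1% and CXCL14 in 99.6% of the cells outside the rule. In contrast FGF18 was at 60.7 CPM and 2.09 CPM, SFRP1 at 182 CPM and 12.5 CPM, GJB2 at 88 CPM and 6.26 CPM and KRT19 at 1352 CPM and 91.9 CPM. AREG (144 against 545 CPM), FST (65.3 against 347 CPM), KRT7 (59.8 against 712 CPM) and ALCAM (142 against 1336 CPM) were higher at E90. These genes were named after their values had been seen.

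The counts by list are to be read against the 10.1% of all genes that were higher at E120 and the 30.6% that were lower, with a median of −0.51. Of the factors of basal and outer root sheath cells 3 of 24 tested genes were higher and 14 lower, with a median of −1.23. In the WNT list 2 of 19 were higher and 12 lower, with a median of −1.32. The share of lower genes was above that of all genes in both lists. All these counts include the 42 SOX9-negative cells, and counts by list without them are not given against E90. Those cells stood low in both lists. The factor list summed to 2545 CPM in them and 4117 CPM in the class, and the WNT list to 195 CPM and 581 CPM. Their part in the lower genes was not tested. Of the junction genes 4 of 21 were higher and 5 lower, and of the barrier genes 7 of 16 were higher and 4 lower. Both lists had a larger share of higher genes, and a smaller share of lower genes, than all genes. In the cell cycle list none of 24 was higher and 14 were lower, and 43.8% of the E90 cells (33.3 to 54.7, unthinned 79.8%) had cell cycle transcripts after thinning, against 21.1% of the E120 class. The 2 intervals did not overlap, but they cover counting error only and not the spread between fetuses. Outside the rule the share was 62.7% (61.5 to 63.8) at E90 and 42% (40.8 to 43.2) at E120. The lower share at E120 was thus not particular to the class.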

How the data were processed

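Cells of 1 library per stage (E60, E90 and E120) were taken from the authors' single table, in which the stage opens each cell's name. The deposited values were natural log values: per cell, the natural log of 1 plus the value scaled to 10000, as the values themselves showed. Cell Ranger 3.0.2 was used by the authors, per the submitters' processing notes. The genome build, annotation and cell filters are not given in the sources used here. UMI counts were recovered by inverting the log, and dividing each by the lowest nonzero value of its cell, taken as 1 UMI, gave a whole number (to within 0.01) for 100% of nonzero values. The planned design had assumed counts.

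The 3 libraries held 65049552, 30277663 and 93403291 UMIs, and the keratin class 2158622, so that 3 counts in its sum are 1.39 CPM. Groups were compared by summed UMIs as the log2 ratio of CPM + 1, with exact Poisson and exact binomial (Clopper-Pearson) 95% intervals. Genes under 10 CPM in both sums were left out. The table listed 16739 genes, of which 12709 carried a symbol. Of these, 11897 matched the RefSeq list of assembly ARS1.2, used for names only.

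Members were clustered on 2000 variable genes, 20 principal components and 15 neighbours, with Leiden at resolution 0.5 (leidenalg 0.10.2, igraph 0.11.9, Python 3.11.15). No doublet caller was run, and leaving out the 10% of E120 cells with the highest UMI counts was an alternative. The scripts were tested on simulated data. The text names the 12 highest and 12 lowest genes with at least 100 CPM, up to 4 genes per list by level and 2 by ratio, and the 10 leading genes of each subcluster, beside the cell type markers, except 1 leading gene that is not reported here. Genes given beyond that rule, of lists, subclusters or E90, were chosen after their values were seen. The class and the 29 gene lists were chosen with earlier results of these data known. Alternatives were other thresholds, cell filters, pseudocounts, weights and clusterings.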

Additional observations from a re-analysis of the deposited data

How the results depend on the processing

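No paired analysis was possible because each stage was 1 library. Comparisons with keratin-positive cells high in DCN (none at E120) or in hair keratins (5 cells) were not made. The share of E120 cells in the class was 5.87% at a keratin threshold of 25 CP10K, 1.61% at 100 CP10K and 2.99% without the KCNIP3 subcluster, an alternative added after seeing the data. Against the other E120 cells a pseudocount of 10 CPM gave 502 genes higher and 364 lower, and no filter on low genes gave 1455 and 1414. Against the E90 cells a keratin threshold of 100 CP10K gave 1143 higher and 3063 lower, a pseudocount of 10 CPM 974 lower, and no filter 1661 and 3883. The cause of these shifts was not tested, beyond the number of genes or cells that each setting lets in. Cell cycle transcripts were in 11.7% of members at a keratin threshold of 100 CP10K and in 12.6% after thinning to 1000 UMIs. CNFN (log2 ratio −1.45) and VSIG8 (−2.25) reversed without the KCNIP3 subcluster. Of the other values of named genes under all alternatives 285 moved within their interval and 145 beyond it. List medians have no interval, and 192 shifted by less than a fixed limit and 51 by more. A change of sign counted as a reversal only for lists with a median of at least 2-fold, so smaller medians that changed sign are not counted as reversed. Lists with more genes higher than lower numbered 16 of 29 and 13 to 16 under the alternatives, and subclusters 4 to 6. The depth of the class, 2158622 UMIs, limits genes under a few CPM.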
